A study of Mus musculus with 8 samples.

Results

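Left ventricular RNA of unstressed hearts was compared between mice with a cardiac knockout of Lin28a and their floxed control littermates. The sham comparison covers 4 of the 8 libraries of the series, 2 a side, chosen by their genotype and surgery labels. It covers the 13120 of 13439 listed genes that reached at least 1 CPM (reads of a gene scaled to a common library total) in at least 2 libraries. The floxed sham group is Lin28afl/fl, a mouse whose Lin28a is flanked by recombination sites and intact, and the cKO sham group is Lin28aCko, with Lin28a deleted in the heart. Both had a sham operation, for which no day is stated. The other 4 libraries, 2 of each genotype, come from hearts taken at day 5 after transverse aortic constriction (TAC), a band on the aorta that raises the load on the left ventricle. They enter the same fit and are compared where a sham result turns on them. The labels name neither the Cre driver with its promoter nor the age or sex of the mice, and they do not say whether the duplicates are separate animals. The p-values therefore measure only the spread between these libraries, which may be technical. The exception is the cKO sham pair, whose libraries differ in sex-linked transcripts (given below) and so are not repeats of 1 heart. The series asks what loss of Lin28a does to the hypertrophy that pressure overload induces, and the sham comparison gives the genotype difference without that load.

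Lin28a is an RNA-binding protein that binds precursors of the let-7 microRNAs and blocks their maturation, and it also binds many messenger RNAs. Mature let-7 pairs through its seed, bases 2 to 8, with sites in the 3' UTR of target messages and lowers their stability and translation. Lin28a is known from embryonic tissue and stem cells, and let-7 is abundant in the adult heart. The mature let-7 family members of the mouse are shown here because all 9 share the seed that the analysis of 3' UTRs below searched for. The sequences are from RefSeq (GRCm38.p6), 5' to 3', with the seed in capitals.
mmu-let-7a-5p: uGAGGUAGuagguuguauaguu
mmu-let-7b-5p: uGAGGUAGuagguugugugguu
mmu-let-7c-5p: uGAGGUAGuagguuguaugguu
mmu-let-7d-5p: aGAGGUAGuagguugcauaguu
mmu-let-7e-5p: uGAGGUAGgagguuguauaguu
mmu-let-7f-5p: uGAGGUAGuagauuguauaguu
mmu-let-7g-5p: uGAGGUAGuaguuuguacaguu
mmu-let-7i-5p: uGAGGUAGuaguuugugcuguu
mmu-miR-98-5p: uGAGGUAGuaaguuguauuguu
The copies of let-7d (chr13:48536078-48536099), let-7f (chr13:48537889-48537910) and let-7a (chr13:48538239-48538260) used here lie close together on the minus strand. Those of let-7c (chr15:85706616-85706637) and let-7b (chr15:85707325-85707346) are neighbours on the plus strand. The microRNAs themselves were not measured by these messenger RNA libraries.

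The complement of the seed is CTACCTC, and a match followed by A is the strongest class of site. Such sites are shown for 3 members of the list of let-7 target growth genes: Hmga2, a chromatin protein of embryonic growth, Igf2bp2, an RNA-binding protein of insulin-like growth factor messages, and Ddx19a, an RNA helicase. Each line gives 30 bases of the 3' UTR in the direction of the transcript (GRCm38, GENCODE M21), with the match in capitals.
Hmga2: acattcaatttCTACCTCAgcatcagttgg
Igf2bp2: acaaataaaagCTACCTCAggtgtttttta
Ddx19a: gtagagactacCTACCTCAttcggaattac
The Hmga2 site is at chr10:120364213-120364242 on the minus strand and is 1 of 4 seed matches in that 3' UTR. The Igf2bp2 site, at chr16:22059462-22059491 on the minus strand, and the Ddx19a site, at chr8:110975893-110975922 on the minus strand, are each the sole match.

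Floxed sham libraries held 15413668 and 16662137 reads assigned to genes, and cKO sham libraries 10315902 and 15069193, so the shallowest library of the series is cKO sham 1. A count of 0 allows up to 3 reads, which is 0.137 to 0.291 CPM over the 8 libraries. The limit takes in counting error alone, because amplified reads that carry no molecular identifier can stem from the same molecule. Across genes, floxed sham libraries correlated at r = 0.991, cKO sham libraries at 0.984 and the pairs between genotypes at 0.984 to 0.987. Genes that differed over 2-fold between replicates numbered 87 in floxed and 273 in cKO hearts. The X-inactivation RNA Xist was at 44.3 CPM in cKO sham 2 and at no more than 0.173 CPM elsewhere. Ddx3y, a helicase gene on the Y chromosome, was at 58.5 and 49.5 CPM in floxed sham and at 63.2 and 0 CPM in cKO sham. In TAC libraries it was at 32.3 to 56.4 CPM. So cKO sham 2 carried the transcripts of a female heart and every other library those of a male one. Sex is thus partly mixed with genotype in the sham comparison, and its part in the differences was not tested. Myl7, the light chain gene of the atria, was at 6.16 and 133 CPM in floxed sham and at 5.14 and 65.0 CPM in cKO sham, so 1 library of each genotype carried atrial transcripts. Transcripts of Lin28a were not analysed here, and the genotypes rest on the labels alone.

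Few genes passed the test for a genotype difference in sham hearts. The natriuretic peptide gene Nppb, the matricellular growth factor gene Ctgf, the glycogen phosphorylase gene Pygl, the interferon-inducible GTPase gene Gbp1, the doublecortin-domain gene Dcdc2a and the lipid acyltransferase gene Hrasls were higher in cKO hearts, and the open reading frame gene 2210407C18Rik was lower. By limma with Benjamini-Hochberg adjustment 7 of 13120 genes passed an adjusted p of 0.05, which is 0.0534% of those tested, 6 of them higher (0.0457%) and 1 lower (0.00762%). The same fit passed 24.9% of genes for the genotype difference in TAC hearts and 42.4% for TAC against sham in floxed hearts. In sham hearts 1013 genes (7.72%) had an unadjusted p under 0.05, 530 higher (4.04%) and 483 lower (3.68%). Over 2-fold on the log2(CPM + 1) scale were 90 genes (0.686%), 43 higher (0.328%) and 47 lower (0.358%). The libraries of the genotypes did not overlap for 5503 genes (41.9%), with cKO hearts higher for 3261 (24.9%) and lower for 2242 (17.1%).

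A log2 difference had a median standard error of 0.187, and its 95% interval reached, in the median, 0.42 to either side. On the log2(CPM + 1) scale this interval lay within 2-fold in either direction for 11540 genes (88%) and within 1.5-fold for 6331 (48.3%). The added 1 CPM holds genes with few or no reads near 0. For such genes a narrow interval does not bound the fold change. In simulated data of this comparison 67, 67 and 66 of 13120 genes were changed 1.5-fold, 2-fold and 4-fold. They were drawn from genes with a floxed sham mean above 5 CPM. The test recovered 6% of those changed 1.5-fold, 50.7% of those changed 2-fold and 89.4% of those changed 4-fold. Recovery of lower genes was not simulated, and Pygl, Hrasls, Dcdc2a and Gbp1 had floxed sham means below this level. Of 99 simulated calls 2 were of unchanged genes. With 99 calls the Benjamini-Hochberg cutoff on p was more lenient than with the 7 calls of the data. Apart from the changed genes, all simulated libraries had the floxed sham means, without the changes of TAC. Recovery in the data may therefore be lower than these shares. The median difference of all genes was 0.02 on the log2 scale, and 0.00 after scaling by median ratios between libraries (RLE).

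**Figure D1:**
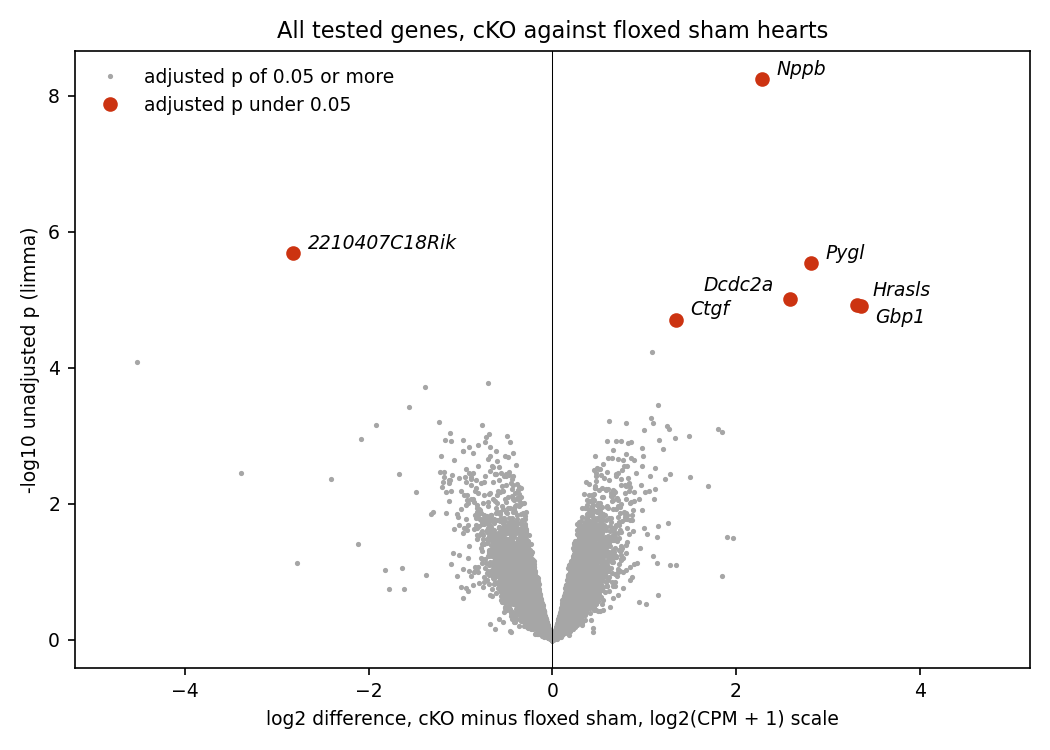
Log2 difference of cKO minus floxed sham hearts on the horizontal axis against -log10 of the unadjusted limma p, with 1 point for each of 13120 genes and the 7 genes past an adjusted p of 0.05 in red. Of the red points 6 lie on the right, Nppb highest, and 1 lies on the left.

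Nppb (chr4:147985788-147987205, plus strand, GRCm38) encodes the precursor of brain natriuretic peptide, which heart muscle makes under stretch and load. It was at 73.3 and 76.9 CPM in floxed sham and at 364 and 377 CPM in cKO sham libraries. The replicates lay close together and the genotypes far apart. Nppb rose by log2 2.29 ± 0.12 (SE, n = 2 a side, limma adjusted p = 7.34e-05). It passed in 18 of 18 alternative fits, with a highest adjusted p = 0.0358, reached without the 3 libraries that carried atrial transcripts.

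Nppa, the gene of atrial natriuretic peptide, was at 188 and 189 CPM in floxed sham and at 286 and 248 CPM in cKO sham. The genotypes did not overlap, as for 41.9% of all genes, and the difference of log2 0.50 ± 0.19 did not pass (limma adjusted p = 0.599, 95% interval 0.07 to 0.92). Nppa and Nppb are thus both higher in value in cKO sham hearts, and the test was passed by Nppb alone.

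Ctgf (chr10:24595442-24598683, plus strand, named Ccn2 in GENCODE M21) encodes a secreted matricellular protein that is induced by stretch and by transforming growth factor beta. Its levels were 51.7 and 48.6 CPM in floxed sham and 113 and 147 CPM in cKO sham. Both cKO libraries lay above both floxed libraries. Ctgf rose by log2 1.34 ± 0.17 (limma adjusted p = 0.0366). The call was lost without floxed sham 1 (adjusted p = 0.329), floxed sham 2 (0.432), cKO sham 2 (0.156), floxed TAC 1 (0.121) or floxed TAC 2 (0.119), while the difference stayed between log2 1.15 and 1.54 over the 8 fits that left out 1 library.

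Pygl (chr12:70190811-70231488, minus strand) encodes the liver form of glycogen phosphorylase, which releases glucose units from glycogen. It was at 4.09 and 5.58 CPM in floxed sham and at 40.0 and 39.3 CPM in cKO sham. The cKO libraries agree closely and lie far above the floxed ones. Pygl rose by log2 2.81 ± 0.29 (limma adjusted p = 0.0127). With 1 library left out the adjusted p was 0.211 (floxed sham 1), 0.105 (floxed sham 2), 0.0837 (cKO sham 2), 0.0763 (floxed TAC 1) or 0.0666 (floxed TAC 2), and under 0.05 for the other 3.

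Hrasls (chr16:29209695-29230531, plus strand, Plaat1 in RefSeq) encodes a phospholipid-metabolizing acyltransferase. It was at 2.85 and 1.20 CPM in floxed sham and at 45.3 and 17.4 CPM in cKO sham. The genotypes were apart, and within each the libraries differed by more than 2-fold. Hrasls rose by log2 3.32 ± 0.40 (limma adjusted p = 0.0273). It missed the threshold without floxed sham 1 (adjusted p = 0.205), floxed sham 2 (0.326), floxed TAC 1 (0.105) or floxed TAC 2 (0.102), and edgeR's quasi-likelihood test gave 0.0533.

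Dcdc2a (chr13:25056004-25210706, plus strand) encodes a microtubule-binding protein with doublecortin domains. Floxed sham libraries held 0.324 and 0.180 CPM, or 5 and 3 reads, and cKO sham libraries 4.36 and 9.62 CPM, or 45 and 145 reads. The floxed values are near the limit that a count of 0 allows. Dcdc2a rose by log2 2.59 ± 0.31 (limma adjusted p = 0.0273), a value that the added 1 CPM makes smaller than the ratio of the reads. Without 1 library the adjusted p was 0.219 (floxed sham 1), 0.326 (floxed sham 2), 0.0654 (cKO sham 2), 0.105 (floxed TAC 1) and 0.102 (floxed TAC 2), and it was under 0.05 without each of the other 3.

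Gbp1 (chr3:142594847-142619179, plus strand, now named Gbp2b) belongs to the guanylate-binding proteins, GTPases that interferons induce against intracellular pathogens. It was at 0.260 and 0.0600 CPM in floxed sham, from 4 reads and 1 read, and at 6.01 and 19.1 CPM in cKO sham, from 62 and 288 reads. The floxed hearts were near the detection limit, and the cKO libraries differed from each other by more than 2-fold. Gbp1 rose by log2 3.36 ± 0.41 (limma adjusted p = 0.0273). Guanylate-binding protein genes are similar in sequence and stand in a cluster, so the split of reads among them is uncertain. The call was lost without floxed sham 1 (adjusted p = 0.219), floxed sham 2 (0.326), floxed TAC 1 (0.105) or floxed TAC 2 (0.102).

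The stretch before the start of Gbp1 is shown because this gene had the highest positive difference of all genes tested and because the interferon-stimulated response element is a short known motif. RefSeq (GRCm38.p6) gives the first 200 bases of the 250-base window before the start at chr3:142594597-142594796, plus strand.
Gbp1: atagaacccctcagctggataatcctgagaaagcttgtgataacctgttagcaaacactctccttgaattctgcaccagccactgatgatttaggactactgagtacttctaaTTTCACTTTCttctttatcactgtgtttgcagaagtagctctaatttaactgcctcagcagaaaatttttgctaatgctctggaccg
The capitals mark a match to the core of the interferon-stimulated response element, in which 2 bases are free, on the minus strand, which begins 137 bases before the start. This pattern occurs on either strand in 3.04% of 27025 windows of that length. Of the 7 genes 6 had a window. Among these, CATTCC, the core of sites of TEAD factors, was found for Nppb (12.63% of all windows), TGANTCA, the core of AP-1 sites, for Hrasls (6.87%), and TTCNNNGAA, the core of STAT sites, for Dcdc2a (7.18%). A match of these letters is a description and not evidence of binding.

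2210407C18Rik (chr11:58608204-58616075, minus strand), annotated as protein-coding and of no function given here, was the 1 gene lower in cKO sham hearts. It was at 7.98 and 6.96 CPM in floxed sham, from 123 and 116 reads, and at 0.194 and 0.199 CPM in cKO sham, from 2 and 3 reads. The cKO values are at the level of the limit that a count of 0 allows. 2210407C18Rik fell by 2.82 on the log2(CPM + 1) scale (SE 0.28, limma adjusted p = 0.0127). It missed the threshold without floxed sham 1 (adjusted p = 0.211), floxed sham 2 (0.116) or cKO sham 2 (0.0654).

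**Figure D2:**
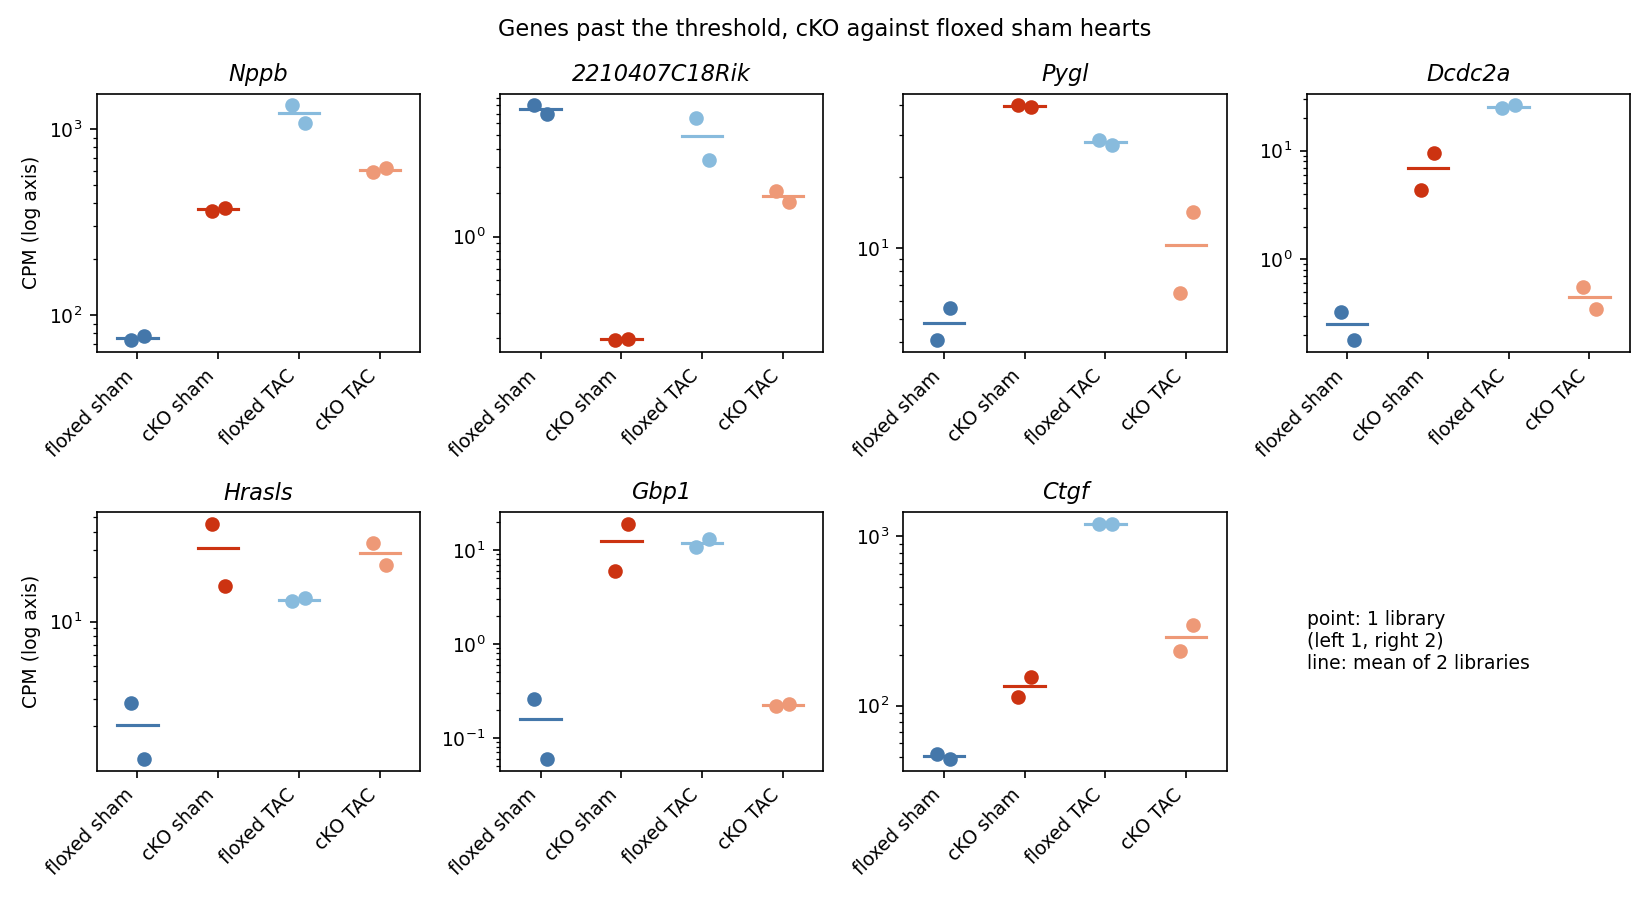
CPM on a log axis of the 7 genes past the threshold in each of the 8 libraries, with a point for each library and short lines for group means (n = 2). In sham hearts the red cKO points lie above the dark blue floxed points for 6 genes and below them for 2210407C18Rik.

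The calls varied with the libraries in the fit, and Nppb was in every set. Without floxed sham 1, Nppb alone passed. Without floxed sham 2 there were 2 calls, and without floxed TAC 1 or floxed TAC 2 also 2, Nppb and 2210407C18Rik. Without cKO sham 2, the library with Xist, 4 genes passed, of which Nppb, Hrasls and Gbp1 are among the 7. Without cKO sham 1 there were 15, all 7 included, and 4 of the 8 added genes are Y-linked (Ddx3y, Eif2s3y, Kdm5d and Uty, named after their values were seen). With the 3 libraries with atrial transcripts left out there were 10, and Nppb, Pygl and Hrasls were the 3 shared with the 7. In a fit of the 4 sham libraries alone 8 genes passed, 4 of them among the 7.

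On reads recovered from the CPM, edgeR's quasi-likelihood test passed 6 genes (0.0457%), all among the 7, and limma-voom passed 2 (0.0152%), Nppb and Pygl. DESeq2 passed 49 of 12611 genes (0.389%), 22 higher and 27 lower, and these include all 7. Of 45 genes described by name 13 passed in DESeq2 and not in limma, among them Myl2, Hcn4, Ednra, Hspa1a, Atf3, H2-Eb1 and H2-Ab1.

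The next genes in rank by p were named after their values were seen. Rftn1, which encodes a lipid raft protein, was at 48.7 and 57.0 CPM in floxed sham and at 98.0 and 131 CPM in cKO sham. The genotypes did not overlap, as for 41.9% of all genes. The difference was log2 1.09 ± 0.16 (limma adjusted p = 0.0961, and under 0.05 with RLE scaling and in DESeq2). Fmn1, a formin that assembles actin filaments, was at 39.4 and 33.4 CPM in floxed sham and at 0.582 and 0.664 CPM in cKO sham. This was the most negative difference of all genes, at log2 -4.52 ± 0.69, and it did not pass (limma adjusted p = 0.119). In TAC hearts the Fmn1 replicates lay at 5.90 and 6.27 CPM in floxed and at 32.9 and 3.46 CPM in cKO libraries, and the fit estimates 1 spread from all 4 groups. Fmn1 passed in the fit of the 4 sham libraries alone, without either cKO TAC library, without the libraries with atrial transcripts and in DESeq2. Raph1, a regulator of lamellipodia (log2 -0.70, limma adjusted p = 0.222), and the zinc finger gene Zfp30 (log2 -1.38, adjusted p = 0.228) came after.

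The 7 genes were set beside the genotype difference in TAC hearts, whose group means use no sham library. Both comparisons take their spread from the same fit of all 8 libraries, so their tests are not independent. Of the 7 sham calls 6 also passed in TAC hearts, which is 85.7% of the sham calls and 0.184% of the 3263 TAC calls (24.9% of genes, 8.39% higher and 16.5% lower). Direction was the same for 1, 2210407C18Rik, and opposite for 5. The genotype by surgery interaction, the genotype difference in TAC minus that in sham hearts, passed for all 7, positive for 2210407C18Rik (4.93% of all genes passed as positive) and negative for the other 6 (9.18%), against 14.1% of all genes in either direction. It uses the sham libraries as well and is not independent of the sham calls.

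In TAC hearts Nppb was at 1346 and 1087 CPM in floxed and at 592 and 615 CPM in cKO libraries. The order of the genotypes was the reverse of that in sham hearts, with a TAC difference of log2 -1.002 (limma adjusted p = 0.00109) and an interaction of -3.29 (adjusted p = 6.26e-05). Ctgf was at 1186 and 1189 CPM in floxed TAC and at 211 and 300 CPM in cKO TAC, a difference of log2 -2.23 (adjusted p = 0.000328). For Ctgf the cKO sham hearts were far below floxed TAC hearts, and so were those of Nppb.

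Pygl was at 28.6 and 27.3 CPM in floxed TAC and at 6.45 and 14.2 CPM in cKO TAC hearts, so its levels in cKO sham hearts exceeded those of every TAC library. The TAC difference was log2 -1.44 (limma adjusted p = 0.00763). Gbp1 was at 10.9 and 13.2 CPM in floxed TAC and at 0.221 and 0.230 CPM in cKO TAC, near the detection limit, and Dcdc2a was at 24.7 and 26.2 CPM against 0.552 and 0.346 CPM. Both genes were thus detected above the limit in cKO sham and floxed TAC hearts and were low in floxed sham and cKO TAC hearts. Their interactions were log2 -6.77 (Gbp1, limma adjusted p = 0.00123) and -6.79 (Dcdc2a, adjusted p = 0.000255).

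Hrasls was at 13.7 and 14.3 CPM in floxed TAC and at 33.6 and 23.8 CPM in cKO TAC. The cKO libraries were above the floxed ones under both surgeries, but the TAC difference did not pass (log2 0.97, limma adjusted p = 0.111) and the interaction did (log2 -2.36, adjusted p = 0.0267). 2210407C18Rik was at 6.54 and 3.34 CPM in floxed TAC and at 2.04 and 1.73 CPM in cKO TAC. It was lower in cKO hearts under both surgeries, and by less after TAC (log2 -0.99, adjusted p = 0.0297, interaction 1.83, adjusted p = 0.0182).

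**Figure D3:**
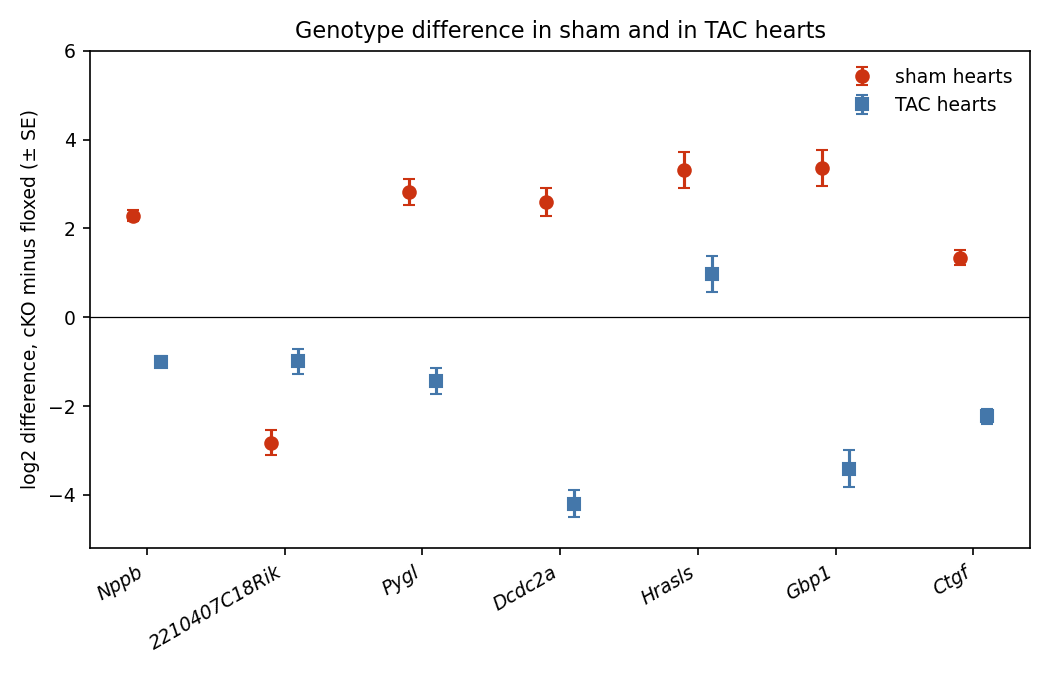
Log2 difference of cKO minus floxed hearts ± SE for the 7 genes, as red circles in sham and blue squares in TAC hearts. The markers lie on opposite sides of 0 for Nppb, Pygl, Dcdc2a, Gbp1 and Ctgf and on the same side for 2210407C18Rik and Hrasls.

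The gene lists held 930 members, of which 870 were tested. A list is described by its counts and its median, beside 54.3% of all genes with a positive difference and a median of 0.02. At an unadjusted p under 0.05, 4.04% of all genes were higher and 3.68% lower, and DESeq2 passed 0.389%. No list member beyond the 7 passed in edgeR or limma-voom. For lists that are not cell markers, counts by DESeq2 are given where they are above those of limma. In bulk RNA fewer cells of a type and less RNA per cell cannot be told apart. The natriuretic and fetal program list holds genes of the fetal heart that hypertrophy brings back. Of its 19 members 2 passed the threshold, Nppb and Ctgf, against 0.0534% of all genes, and 8 were positive. At an unadjusted p under 0.05, 4 were higher and 1 lower. The cKO libraries lay above both floxed libraries for 7 and below both for 2, against 24.9% and 17.1% of all genes. The median of the list was -0.08, but it was 0.03 to 0.14 in the 4 fits that left out 1 sham library. Skeletal actin, Acta1, was at 778 and 601 CPM in floxed sham and at 892 and 395 CPM in cKO sham. The slow myosin gene Myh7 was at 1658 and 1091 against 894 and 1353 CPM. The genotypes overlapped for both, with differences of log2 -0.20 (Acta1, limma adjusted p = 0.922) and -0.29 (Myh7, adjusted p = 0.821).

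The list of adult contraction and calcium handling had 0 of 18 genes that passed in limma, 0 were higher and 2 lower at an unadjusted p under 0.05, and the median was -0.10. DESeq2 passed 1. Myl2, the ventricular regulatory light chain, was at 12247 and 11918 CPM in floxed sham and at 7049 and 7131 CPM in cKO sham. The replicates lay close together, and the difference of log2 -0.77 ± 0.16 did not pass in limma (adjusted p = 0.388) and passed in DESeq2. Myh6, the fast myosin of the adult ventricle, was at 31525 and 21059 against 15260 and 19395 CPM (log2 -0.58, limma adjusted p = 0.703, 95% interval -1.29 to 0.12). The calcium pump gene Atp2a2 (log2 -0.25, adjusted p = 0.746) and the calcium release channel gene Ryr2 (log2 -0.28, adjusted p = 0.617) did not pass either.

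Potassium and sodium channel genes, which shape the action potential, had the lowest median of the lists that are not cell markers, at -0.37. None of 21 passed in limma and 2 in DESeq2. At an unadjusted p under 0.05, 12 were lower, against 3.68% of all genes, and 0 were higher, and 13 had cKO libraries below both floxed libraries, against 17.1% of all genes. The median was -0.42 to -0.30 when each sham library was left out. Hcn4, the pacemaker channel of the conduction system, was at 19.3 and 20.6 CPM in floxed sham and at 6.59 and 12.1 CPM in cKO sham (log2 -1.07 ± 0.26, limma adjusted p = 0.434). Kcnh2, a channel of repolarization, was at 157 and 175 against 96.0 and 119 CPM (log2 -0.63 ± 0.16, adjusted p = 0.447). Both passed an interaction test, of log2 1.96 (Hcn4, adjusted p = 0.0121) and 1.74 (Kcnh2, adjusted p = 0.00469), since cKO hearts were above floxed ones after TAC.

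The summed level of 12 cardiomyocyte markers was 84864 and 72674 CPM in floxed sham and 63425 and 69736 CPM in cKO sham, so both cKO libraries lay below both floxed ones. Its members did not share this direction: 8 of 12 were positive and the median was 0.03. The libraries did not overlap for 4 with cKO hearts higher and 3 with cKO hearts lower, against 24.9% and 17.1% of all genes. The sum of 7 of 8 valve and conduction markers, Hcn4 among them, was 67.3 and 85.5 against 52.2 and 63.7 CPM. The sum of 8 of 9 atrial markers was 102 and 419 against 76.6 and 248 CPM, with overlap. The part of these cell types in the differences of contraction and channel genes was not tested.

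In the lists of energy metabolism Pygl alone passed the threshold. Fatty acid uptake and oxidation had 0 of 32 members past the threshold in limma, 12 positive, 1 higher and 3 lower at an unadjusted p under 0.05, and a median of -0.09. Pdk4, the kinase that shuts pyruvate dehydrogenase, was its highest member, at 216 and 332 CPM in floxed sham and at 1493 and 625 CPM in cKO sham. The genotypes did not overlap, as for 41.9% of all genes, and the cKO libraries differed by more than 2-fold. The difference of log2 1.85 ± 0.39 did not pass (limma adjusted p = 0.388). Glycogen metabolism had 1 of 18 members past the threshold, Pygl, 8 positive, 3 higher and 1 lower at an unadjusted p under 0.05 (4.04% and 3.68% of all genes), and a median of -0.08. The TCA cycle and anaplerosis list had 0 of 24 past the threshold, 0 higher and 1 lower at an unadjusted p under 0.05, and a median of -0.03, and Pck2, the mitochondrial phosphoenolpyruvate carboxykinase, was at 11.9 and 11.7 against 11.3 and 15.3 CPM (log2 0.15, adjusted p = 0.862).

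Subunits of the respiratory chain and the ribosome were slightly higher in value in cKO sham hearts. Of 35 complex I genes 33 were positive (median 0.14), of 40 genes of complexes II to V 36 (median 0.12), and of 73 cytosolic ribosomal protein genes 71 (median 0.16). None passed in limma. At an unadjusted p under 0.05 there were 3, 1 and 4 higher and 0 lower in each, where all genes give 4.04% higher. The cKO libraries lay above both floxed libraries for 23, 26 and 64 of them, against 24.9% of all genes. The medians stayed positive under RLE scaling (0.12, 0.09 and 0.14). Ndufa2 of complex I was at 221 and 213 against 278 and 245 CPM (log2 0.26), Atp5k of the ATP synthase at 331 and 314 against 451 and 362 CPM (log2 0.33), and the ribosomal gene Rps3a1 at 443 and 472 against 539 and 556 CPM (log2 0.26). Members of a list are not independent, and many small ribosomal and respiratory genes have processed pseudogenes that can take their reads.

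Extracellular matrix genes had 0 of 35 members past the threshold, 26 positive, and a median of 0.15, which was 0.02 to 0.20 without each sham library. At an unadjusted p under 0.05, 1 was higher and 0 lower, against 4.04% and 3.68% of all genes. Elastin, Eln, was at 28.3 and 27.9 CPM in floxed sham and at 66.6 and 28.9 CPM in cKO sham, so cKO sham 1 alone stood apart (log2 0.63, limma adjusted p = 0.670). The summed level of 11 fibroblast markers was 3227 and 3160 CPM in floxed and 3123 and 3590 CPM in cKO sham, with overlap. Ctgf, which is counted in the fetal program list, was thus not accompanied by calls among matrix genes.

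Heat shock and ER chaperone genes had the second highest median of the lists that are not cell markers, at 0.29 (0.19 to 0.33 without each sham library), with 22 of 25 positive. None passed in limma and 2 in DESeq2. At an unadjusted p under 0.05, 11 were higher and 0 lower, against 4.04% and 3.68% of all genes. The cKO libraries lay above both floxed libraries for 22, against 24.9% of all genes. Hspa1a, an inducible chaperone nearly identical to its neighbour Hspa1b so that their reads cannot be split with certainty, was at 2.53 and 4.20 CPM in floxed sham and at 11.5 and 8.30 CPM in cKO sham (log2 1.33 ± 0.29, limma adjusted p = 0.388). Hsp90aa1, the inducible cytosolic chaperone, was at 89.4 and 104 against 162 and 133 CPM (log2 0.60 ± 0.16, adjusted p = 0.447). The genotypes did not overlap for either gene.

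Immediate early genes, transcription factors that stress and growth signals induce within a short time, had 0 of 24 past the threshold in limma and 2 in DESeq2. At an unadjusted p under 0.05, 5 were higher and 2 lower, against 4.04% and 3.68% of all genes, and the median was 0.15. Atf3 was at 2.98 and 4.80 CPM in floxed sham and at 13.1 and 12.0 CPM in cKO sham (log2 1.49 ± 0.32, limma adjusted p = 0.388). The nuclear receptor gene Nr4a3 was at 0.260 and 1.26 against 8.53 and 2.12 CPM (log2 1.69 ± 0.48, adjusted p = 0.469). Atf3 replicates were close together, while those of Nr4a3 differed by more than 2-fold in each genotype. The floxed sham values of Nr4a3 come from 4 and 21 reads, the first near the limit that a count of 0 allows.

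Interferon response genes had 1 of 38 members past the threshold, Gbp1, 25 positive, and a median of 0.11 (0.01 to 0.24 without each sham library). DESeq2 passed 2. At an unadjusted p under 0.05, 6 were higher and 2 lower, against 4.04% and 3.68% of all genes. Ifi44 and Gbp10, named after their values were seen, came next. Ifi44 was at 2.72 and 2.70 CPM in floxed sham and at 8.24 and 7.43 CPM in cKO sham (log2 1.25 ± 0.26, limma adjusted p = 0.388), and Gbp10 at 10.4 and 8.70 against 19.9 and 15.7 CPM (log2 0.83 ± 0.18, adjusted p = 0.392).

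Genes of MHC class I and class II, which present peptides to T cells, had the highest median of the lists that are not cell markers, 0.42 (0.31 to 0.54 without each sham library). Of 13 tested members 0 passed in limma and 2 in DESeq2, where 0.389% of all genes passed, and 10 were positive. At an unadjusted p under 0.05, 6 were higher and 0 lower, against 4.04% and 3.68% of all genes. H2-Eb1 was at 33.3 and 33.5 CPM in floxed sham and at 68.3 and 54.8 CPM in cKO sham (log2 0.85 ± 0.19, limma adjusted p = 0.388), and H2-Ab1, its partner chain of class II, at 35.7 and 36.4 against 68.5 and 57.5 CPM (log2 0.78 ± 0.20, adjusted p = 0.447). Both class II genes had no overlap between genotypes, which holds for 41.9% of all genes. The summed level of 15 macrophage markers was 458 and 463 CPM in floxed and 492 and 378 CPM in cKO sham, with overlap, and that of 12 endothelial markers was 1830 and 1843 against 1958 and 2155 CPM, with cKO hearts above. Of 12 lymphocyte markers 3 were listed, at a sum of 2.04 to 4.18 CPM in sham libraries. The part of these cells in the class II difference was not tested.

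Cell proliferation genes had 0 of 30 past the threshold, 6 positive and a median of -0.23. At an unadjusted p under 0.05, 1 was higher and 4 lower, against 4.04% and 3.68% of all genes. The median lay between -0.40 and -0.05 when each sham library was left out. Bub1b, a mitotic checkpoint kinase, was at 1.17 and 2.16 CPM in floxed sham and at 0.582 and 0.265 CPM in cKO sham. The cKO values of Bub1b come from 6 and 4 reads, near the limit that a count of 0 allows. Cenpf, a kinetochore protein gene, was at 25.6 and 28.1 against 16.5 and 20.0 CPM. Neither passed in limma (Bub1b log2 -0.89, adjusted p = 0.511, and Cenpf log2 -0.54, adjusted p = 0.475). The genotypes did not overlap for either gene, which holds for 41.9% of all genes.

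Receptor genes for adrenaline and endothelin had 0 of 15 past the threshold in limma and 1 in DESeq2. At an unadjusted p under 0.05, 1 was higher and 3 lower, against 4.04% and 3.68% of all genes. The endothelin receptor genes lay in opposite directions, with Ednra at 16.4 and 36.7 CPM in floxed sham and 11.3 and 9.29 CPM in cKO sham (log2 -1.19 ± 0.33, limma adjusted p = 0.461) and Ednrb at 19.2 and 25.3 against 42.7 and 33.7 CPM (log2 0.76 ± 0.19, adjusted p = 0.447). Circadian clock genes had 0 of 19 past the threshold, also 0 at an unadjusted p under 0.05, and a median of -0.26, which ran from -0.47 to 0.04 without each sham library. Erythroid markers, 3 of 7 listed, summed to 1119 and 1267 CPM in floxed and 701 and 484 CPM in cKO sham hearts.

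**Figure D4:**
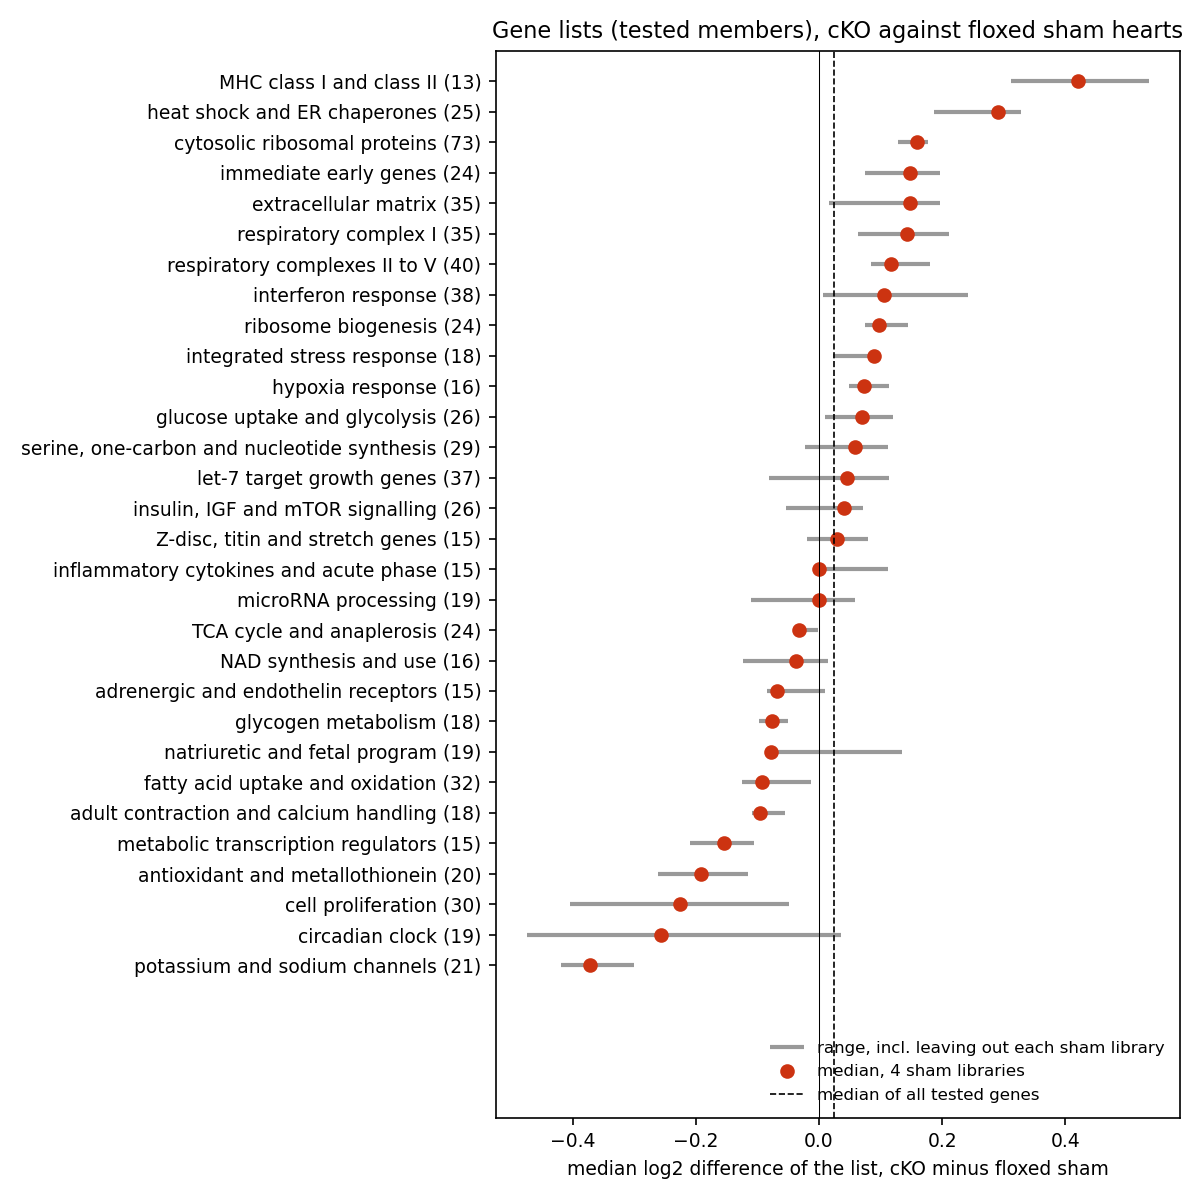
Median log2 difference of cKO minus floxed sham hearts for each gene list that is not a cell marker list, with the number of tested members in brackets, as red points, and the range that includes the fits without each sham library as grey bars. MHC genes at 0.42 and chaperones at 0.29 lie farthest right and channel genes at -0.37 farthest left, beside the median of all genes at 0.02 (dashed line).

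The let-7 target growth genes, a list of messages known as let-7 targets in growth and proliferation, had 0 of 37 tested members past the threshold. Of these 19 were positive and 18 negative, with a median of 0.05 (-0.08 to 0.11 without each sham library). At an unadjusted p under 0.05, 2 were higher and 3 lower, against 4.04% and 3.68% of all genes. Hmga2, whose 3' UTR holds the site shown above, was at 4.28 and 4.68 CPM in floxed sham and at 3.59 and 4.71 CPM in cKO sham (log2 -0.10, limma adjusted p = 0.927, 95% interval -0.58 to 0.39). Igf2bp2 was at 2.34 and 3.96 against 4.17 and 2.92 CPM (log2 0.15, adjusted p = 0.903, 95% interval -0.42 to 0.71). The genotypes overlapped for both. Ddx19a was at 49.4 and 44.1 against 32.0 and 38.7 CPM without overlap, as for 41.9% of all genes (log2 -0.40, limma adjusted p = 0.599). Arid3b, a DNA-binding protein gene, was at 3.70 and 3.36 against 0.582 and 2.46 CPM (log2 -0.95, adjusted p = 0.599). The list of microRNA processing genes had 0 of 19 past the threshold, 1 higher and 1 lower at an unadjusted p under 0.05, and a median of 0.00. Its member Ddx17, a helicase of the Drosha complex, was at 45.5 and 58.3 against 68.3 and 77.0 CPM (log2 0.49, adjusted p = 0.534).

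Seed matches were then counted in the 3' UTRs of 12654 of the 13120 tested genes (GENCODE M21). The 11304 genes with no match had a median difference of 0.03, the 1350 with at least 1 match 0.00, and the 158 with at least 2 matches -0.04. Positive differences made up 54.8%, 50.6% and 39.9% of these classes. Of the 475 genes with a match followed by A 52.0% were positive, with a median of 0.01. Among genes with at least 1 match 0 were past the threshold in limma, and 7.04% had an unadjusted p under 0.05, against 7.81% without a match.

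The class with matches also had longer 3' UTRs, with a median of 2374 against 1106 bases, and 3627 bases for at least 2 matches. When the genes were cut by 3' UTR length into 4 groups of equal size, genes with a match in the shortest group had a median of -0.06 (79 genes) against 0.04 without. In length group 2 the medians were 0.022 with (203 genes) and 0.024 without a match, and in group 3 -0.002 (382 genes) and 0.024. In the longest group both were at 0.01 (686 and 2478 genes). Positive were 41.8% with and 57.9% without a match in the shortest group, and 50.9% and 51.9% in the longest. Without each sham library the median of the class with at least 1 match ran from -0.03 to 0.04, and that of the class with at least 2 from -0.08 to -0.02. In TAC hearts the genotype medians were -0.105 without a match and -0.167 with at least 2, where all genes with a 3' UTR gave -0.105. The part of 3' UTR length in the differences between classes was not tested beyond these length groups.

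**Figure D5:**
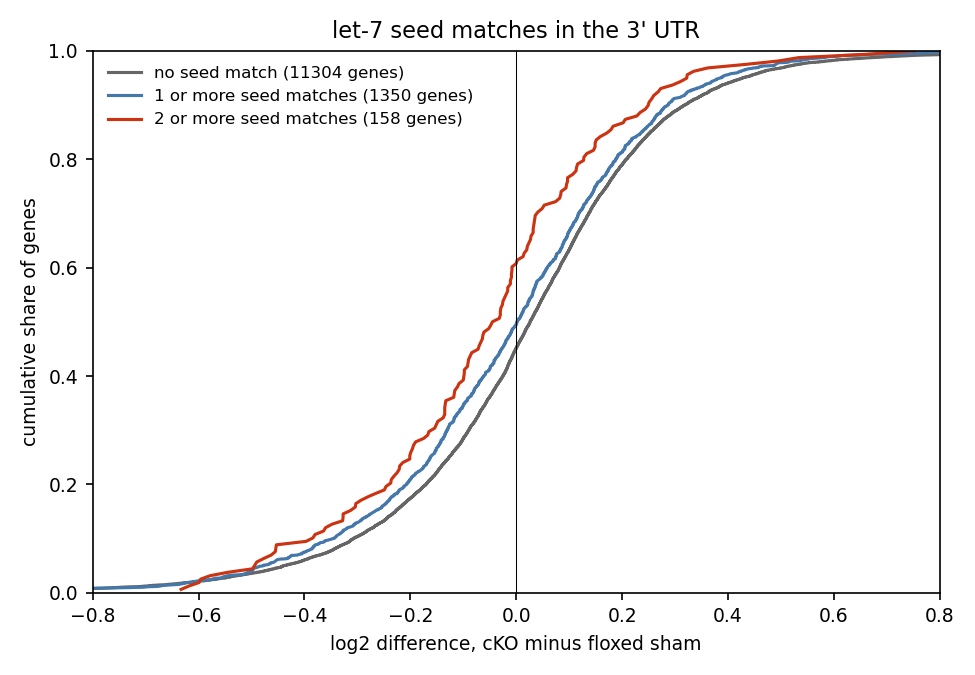
Cumulative share of genes against the log2 difference of cKO minus floxed sham hearts, for genes with 0, at least 1 and at least 2 let-7 seed matches in the 3' UTR (11304, 1350 and 158 genes). The curve for at least 2 matches lies to the left, with 39.9% of its genes above 0 against 54.8% for genes without a match.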

How the data were processed

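The labels describe Trizol RNA of left ventricles, TruSeq stranded mRNA libraries and paired 50 bp reads from an Illumina instrument. Per the submitters' processing notes Bowtie2 2.2.6, HTSeq and DESeq2 were used with mm10; annotation, counting settings and the order of these tools were not stated. The values the authors deposited are CPM of 13439 genes in 8 libraries. They came out as whole reads (within 0.02) for 100% of values in each library, and count tests used these reads.

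Limma 3.58.1 (R 4.3.3) with a trended variance was fitted to log2(CPM + 1) of all 8 libraries, 1 coefficient per group. The test took 13120 genes that reached 1 CPM in 2 or more libraries (319 were left out), and Benjamini-Hochberg adjustment ran over all of them at 0.05. A fold change on this scale understates that of low genes. Groups came from the labels. The alternatives were another pseudocount (0.25 CPM), no filter, a mean of at least 5 CPM, RLE scaling, edgeR 4.0.16, DESeq2 1.42.0, limma-voom, a replicate block, other sets of libraries and each library left out. The fit was tested on simulated data.

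The members and lists were chosen with earlier results of these data known. Genes named are those past the threshold whose groups did not overlap, up to 15 a direction, a fixed set of hypertrophy, let-7 and quality genes, and from each list up to 4 members past the threshold or, with none, the 2 of lowest p. Of the last, a subset is printed.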

Additional observations from a re-analysis of the deposited data

Results flagged for a closer look

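For 28 genes named above the genotype difference itself differed between TAC and sham hearts by limma's interaction term (adjusted p under 0.05, against 14.1% of all genes). The term is the log2 genotype difference in TAC minus that in sham hearts, and it uses the sham libraries that also gave the sham differences. Among the genes past the threshold in sham hearts it was -3.29 for Nppb, -3.58 for Ctgf, -4.26 for Pygl, -6.77 for Gbp1, -6.79 for Dcdc2a, -2.36 for Hrasls and 1.83 for 2210407C18Rik. Among the genes next in rank it was -1.51 for Rftn1, 5.32 for Fmn1 and 2.58 for Zfp30.

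Further negative terms, where cKO hearts stood lower relative to floxed ones after TAC than after sham surgery, were -1.56 for Nppa, -1.59 for Igf2bp2, -0.88 for Rps3a1, -3.41 for Hspa1a, -1.45 for Hsp90aa1, -1.20 for Ddx17, -3.07 for Atf3, -2.32 for H2-Eb1, -2.28 for H2-Ab1, -1.27 for Ednrb and -2.18 for Ifi44. Positive terms were 1.75 for Myh6, 1.40 for Atp2a2, 1.54 for Myl2, 0.99 for Ryr2, 1.96 for Hcn4, 1.74 for Kcnh2 and 2.61 for Ednra.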

How the results depend on the processing

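Of 7 genes past the threshold in sham hearts, a mean filter of 5 CPM left 2, limma-voom 2 and DESeq2 gave 49, and the fits without 1 library gave 1 to 15. A pseudocount of 0.25 CPM and no filter each gave the same 7 genes. The genotype difference in TAC hearts (3263 genes) ranged from 1400 to 3622 and the interaction (1851 genes) from 254 to 2919 without 1 library. Of 43 lists with more than 1 tested member, 24 had a positive median, and 21 to 28 without 1 library. The replicate block gave 8 genes in sham hearts, the same 7 and Rftn1. Deviations of libraries with the same number correlated at -0.105 to 0.081 over the 6 pairs of groups, so the numbers were not treated as pairs.

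None of the 7 genes changed sign. Their genotypes did not overlap in sham hearts, so leaving out 1 library could not reverse them. Leaving out a TAC library does not move a sham difference at all. Among genes not past the threshold, the log2 difference crossed 0 without 1 library for Acta1 (-0.79 to 0.38), Myh7 (-0.59 to 0.012), Pck2 (-0.055 to 0.35), Hmga2 (-0.26 to 0.06), Igf2bp2 (-0.14 to 0.43), Ddx3y (-5.78 to 0.23) and Myl7 (-2.73 to 1.49). Without the 3 libraries with atrial transcripts it crossed 0 for Acta1 (0.20), Pck2 (-0.068) and Ddx3y (0.11). The cause was not tested. Where leaving out a library left 1 in a group, that library was assumed to vary like the others.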
